A study of Mus musculus with 12 samples.

Results

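The genes described here are 53 that build, remodel or mark the extracellular matrix of the liver and the stellate cells that make much of it. They were taken by symbol from a fixed list, which was chosen with earlier results of these data known. Of these genes, 51 had a probe set named for them alone, among 12393 genes with such a probe set. Fbn1, for fibrillin, and Spp1, for osteopontin, had none in the annotation used, and 1 probe set named for Thbs1 together with Pald1 was left out. Each gene was read by its probe set of highest mean log2 signal over the 12 arrays. The 51 genes had 101 probe sets in all, and 34 had more than 1. Of the 51, 32 lay above the median probe set of the array, which had a signal of 38.5, and the 19 below it are called dim. On dim probe sets a small change of signal becomes a large log2 difference.

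Liver RNA of 12 male mice, 6 weeks old, was hybridised to 1-colour Affymetrix mouse arrays. All mice carried human alpha1-antitrypsin under inducible control in hepatocytes, as the wild-type form in the M line and as the mutant ATZ form in the Z line; the promoter that drives it was not given in the sources used here. M off and Z off mice drank water with 40 µg/mL doxycycline from conception on, so that the transgene was off. M on and Z on mice had none and expressed it, with 3 biological replicates in each of the 4 groups. Transgene expression and the absence of doxycycline cannot be told apart in this design, nor can the form of the protein and the mouse line.

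Hepatic stellate cells lie between hepatocytes and the sinusoidal endothelium, where they store vitamin A. When they are activated, as in fibrosis, they take on features of myofibroblasts, with smooth muscle actin (Acta2) and transgelin (Tagln), and they secrete fibrillar collagens. TGF-beta is the best known signal for this step: its receptors phosphorylate SMAD proteins, and Smad7 is an inhibitor that the pathway itself induces. The matrix of a healthy liver also includes a loose basement membrane-like layer along the sinusoids, with type IV collagen, laminin and nidogen, and the plasma form of fibronectin is made by hepatocytes.

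Promoter windows are shown for the 4 genes above the median level with the smallest p in the on minus off comparison averaged over both lines, where the mice without doxycycline read lower. They are from RefSeq on GRCm38.p6, run from 250 bases before the annotated start to 50 after it, and are written along the gene's own strand. Capitals mark a CCAAT box or a TATAAA motif, either of which may appear as its reverse complement (ATTGG or TTTATA).
Nid1, chr13:13437352-13437651, plus strand: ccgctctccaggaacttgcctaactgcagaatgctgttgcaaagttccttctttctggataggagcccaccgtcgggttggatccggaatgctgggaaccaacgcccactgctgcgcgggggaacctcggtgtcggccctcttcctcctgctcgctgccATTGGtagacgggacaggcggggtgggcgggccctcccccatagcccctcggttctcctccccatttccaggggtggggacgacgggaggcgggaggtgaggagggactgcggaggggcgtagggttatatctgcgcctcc
Ecm1, chr3:95739520-95739819, minus strand: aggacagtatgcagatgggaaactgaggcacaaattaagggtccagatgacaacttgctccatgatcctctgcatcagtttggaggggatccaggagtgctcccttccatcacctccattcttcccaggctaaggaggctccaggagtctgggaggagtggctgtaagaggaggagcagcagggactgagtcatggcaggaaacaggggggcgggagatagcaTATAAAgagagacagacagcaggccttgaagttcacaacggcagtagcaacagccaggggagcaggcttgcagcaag
Mmp14, chr14:54431348-54431647, plus strand: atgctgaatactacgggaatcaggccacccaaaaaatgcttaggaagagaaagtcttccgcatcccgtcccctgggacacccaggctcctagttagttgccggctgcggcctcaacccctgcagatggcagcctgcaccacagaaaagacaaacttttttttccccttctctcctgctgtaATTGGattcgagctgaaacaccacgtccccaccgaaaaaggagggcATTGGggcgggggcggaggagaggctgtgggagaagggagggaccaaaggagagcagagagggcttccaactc
Col3a1, chr1:45311288-45311587, plus strand: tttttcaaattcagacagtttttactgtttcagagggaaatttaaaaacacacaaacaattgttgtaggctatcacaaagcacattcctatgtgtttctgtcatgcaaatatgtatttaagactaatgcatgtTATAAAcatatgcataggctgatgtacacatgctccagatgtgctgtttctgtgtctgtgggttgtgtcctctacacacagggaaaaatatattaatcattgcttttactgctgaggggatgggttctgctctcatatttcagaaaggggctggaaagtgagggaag

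The 4 windows were unlike each other. Nid1 held a reversed CCAAT box at -91 from the start in a window of 64.7% G and C, and Mmp14 held reversed boxes at -69 and -23. Ecm1 held TATAAA at -27, and the TATAAA of Col3a1 lay at -117, in a window of 37.7% G and C. For 34 of the 51 measured genes the table gave a usable window, 38 windows in all. CCAAT on either strand was in 16 of them (42.1%) against 37.4% of all 32851 windows in the table, and TATAAA on either strand in 5 (13.2%) against 13.6%. CAGAC, the letters of a SMAD binding element, was in 22 of the 38 (57.9%) against 49.6%, and a CArG box, which binds serum response factor, in 1 (2.63%) against 1.63%. These are matches of letters only. Col4a1 and Col4a2, the 2 chains of the common type IV collagen, are read in opposite directions from neighbouring starts, and their windows overlapped by 78 bases at chr8:11312777-11312854.

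The liver identity of the RNA was plain, with summed signals of 9 hepatocyte markers between 101900 and 150000 on the 12 arrays. Array medians lay between 38.8 and 47.2. The M off arrays of replicates 1 and 3 stood apart by skeletal muscle transcripts: the sum of 11 such markers, all dim on average over the 12 arrays, was 454.4 and 786.6 there and between 114.8 and 222.9 on the other 10. The ratio of 3' to 5' signal of the beta-actin control, which rises as RNA degrades, was 2.18 to 2.53 in Z off, 2.72 to 3.89 in M off and 3.09 to 4.38 in M on, and was 5.16, 2.44 and 3.90 on the Z on arrays. For the GAPDH control this ratio was 1.09 to 1.49 in Z off and 1.23 to 1.92 in Z on, highest on Z on replicate 1. It was 1.48 to 1.54 in M off and 1.46 to 1.60 in M on. The 18S control read 93.9 to 373.0 in Z off and 914.2 to 1491.7 in Z on, with no overlap, and 226.6 to 767.5 in the M groups. The part of these differences in the results below was not tested.

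In the livers that expressed the Z form, 43 of the 51 genes read lower than in Z off livers, with a median log2 difference of -0.39. That side held all 7 fibrillar collagen and cross-linking genes, all 8 basement membrane genes and 7 of 8 stellate and myofibroblast genes, while Ccn2 lay on the other. No single gene passed the test. Over all 12393 genes 52.8% read lower, with a median of -0.03. The test was limma's moderated test over all 22626 probe sets with Benjamini-Hochberg adjustment, called at an adjusted p under 0.05, and it called 3 probe sets (0.0133%), none of them for these genes, whose lowest adjusted p was 0.443. At an unadjusted p under 0.05 there were 9 of the 51 (17.6%), 8 lower and 1 higher, against 6.36% of all genes. In 14 of the 51 (27.5%) every Z on array lay below every Z off array, against 7.0% of all genes, and in 1, Ccn2, every Z on array lay above, against 5.5%. The 14 were the collagen genes Col1a2, Col3a1, Col5a1, Col4a1 and Col6a1, the elastic fibre gene Eln, the basement membrane gene Nid1, Dcn, Sparc, Ecm1, the protease gene Mmp2, Smad7, Acta2 and Tagln. With arrays centred on their medians, 38 of 51 read lower and 11 (21.6%) lay apart in that direction, against 5.65% of all genes. Quantile normalization gave 40 and 12 (23.5%, against 6.43%), and averaging a gene's probe sets gave 45 and 13 (25.5%, against 7.11%). Without Z on replicate 1, the array with the highest actin ratio, 40 of 51 read lower and the median was -0.24.

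The same contrast in the M line, which asks what goes with expression of the wild-type form, gave 35 of 51 genes lower and a median of -0.17. Over all genes 50.3% read lower and the median was near 0. No probe set of the array was called by limma (0.0%), with 1172 of 22626 at an unadjusted p under 0.05, and the lowest adjusted p among the 51 was 0.585. The count at an unadjusted p under 0.05 was again 9 of 51, 8 lower and 1 higher, against 4.75% of all genes. Every M on array lay below every M off array in 10 of the 51 (19.6%), against 5.08% of all genes, and above it in none, against 5.61%. The 10 were Col1a2, Col4a2, Lamb1, Nid1, Dcn, Ccn2, Ecm1, Mmp14, Timp3 and Tagln, of which Lamb1, Timp3, Ccn2 and Tagln are dim. The count stayed at 10 with quantile normalization. It was 8 (15.7%) with arrays centred on their medians, against 4.25% of all genes, and 8 with a gene's probe sets averaged, against 5.32%. The median was -0.30 without M off replicate 2, -0.25 without M on replicate 3, and -0.13, with 32 lower, without the 2 M off arrays of high skeletal muscle signal, which leaves M off as replicate 2 alone, assumed to vary like the other groups.

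Across the lines, which share no array in these contrasts, 32 of the 51 genes read lower without doxycycline in both, 5 higher in both, 11 lower in Z and higher in M, and 3 the reverse. The shares of all genes with these patterns were not computed. Averaged over both lines, 39 of 51 read lower with a median of -0.25, against 51.9% of all genes. Limma called 2 probe sets (0.00884%) and none of the 51, and 11 of the 51, all lower, had an unadjusted p under 0.05, against 5.64% of all genes. Col1a2, Nid1, Dcn, Ecm1 and Tagln had every on array below every off array of their own line in both lines, 5 of 51 (9.8%) against 0.444% of all genes. The count of 5 became 3 with arrays centred on their medians, and 3 when a gene's probe sets were averaged. In the other direction no member lay apart in both lines, and only 0.395% of all genes did, so none among 51 is unremarkable. Z on was the group of lowest mean for 29 of the 51 genes, and M off the group of highest mean for 27, again without a count over all genes. Because these are bulk livers, fewer cells of a type and less RNA per cell cannot be told apart.

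**Figure D1:**
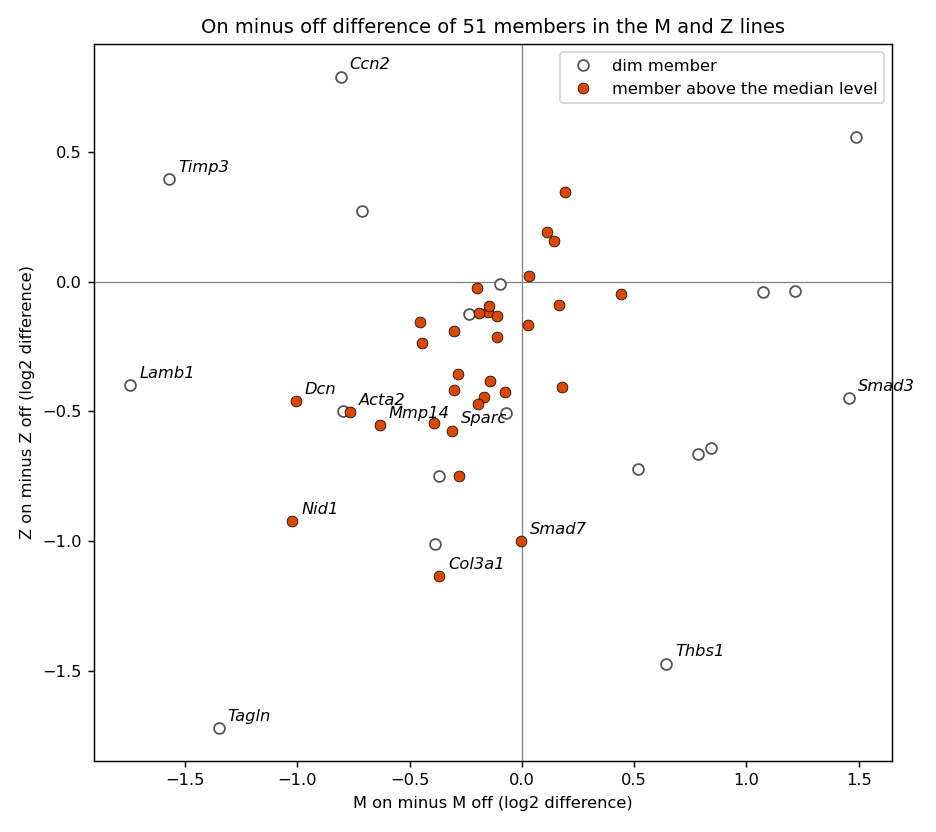
Each point is 1 of the 51 genes, with the log2 difference of M on minus M off on the horizontal axis and of Z on minus Z off on the vertical axis; filled points are the 32 genes above the median level and open points the 19 dim ones. The lower left field holds 32 genes, Tagln and Nid1 lie far into it, and Ccn2 lies at the upper left.

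Among the stellate and myofibroblast cell genes, 7 of 8 read lower in Z on than in Z off and 6 of 8 lower in M on than in M off, and none was called. Tagln, an actin-binding protein of smooth muscle and myofibroblasts, is dim and was singled out after its values were seen. Its signals were 49.0, 52.9 and 63.9 in M off, 29.6, 17.3 and 19.5 in M on, 77.9, 44.2 and 46.7 in Z off, and 10.7, 18.3 and 22.9 in Z on. All 6 arrays without doxycycline lay below all 6 arrays with it, and the highest without was 29.6. The log2 difference was -1.72 ± 0.34 (SE; 3.3-fold; adjusted p = 0.443, limma) in the Z line and -1.35 ± 0.34 (adjusted p = 0.587) in the M line. Averaged over both lines it was -1.54 ± 0.24 (95% interval -2.08 to -0.99), with an unadjusted p of 9.6e-05 and an adjusted p of 0.182.

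Acta2, smooth muscle alpha-actin, had signals of 155.7, 101.4 and 182.7 in M off, 109.4, 66.8 and 80.5 in M on, 128.9, 102.9 and 142.8 in Z off, and 78.8, 86.7 and 97.7 in Z on. The Z groups did not overlap, while M off replicate 2 fell within the M on range. The log2 difference was -0.50 ± 0.27 in the Z line (adjusted p = 0.831, limma) and -0.77 ± 0.27 in the M line (adjusted p = 0.888). The second Acta2 probe set was dim, with group means of 7.80 to 21.3, and read higher in M on by 0.60, and with both probe sets averaged the M difference was -0.08. With M off replicate 2, the lowest M off array for Acta2, as the only M off array, the M difference was -0.28 for Acta2 and -1.30 for Tagln; the part of skeletal muscle signal in these values was not tested. The 11 smooth muscle and portal fibroblast markers summed to 275.4 to 380.7 in M off, 235.7 to 313.6 in M on, 255.1 to 276.5 in Z off and 241.8 to 251.2 in Z on, with Myh11 and Cnn1 dim and none listed at 0; their part in the Acta2 and Tagln values was not tested.

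Vim, vimentin, the intermediate filament of mesenchymal cells, had signals of 109.1, 93.0 and 121.6 in M off, 119.4, 67.6 and 113.5 in M on, 67.8, 94.0 and 138.3 in Z off, and 66.6, 64.0 and 92.9 in Z on. Both lines overlapped, with differences of -0.39 ± 0.32 in Z and -0.14 ± 0.32 in M, and a second bright probe set gave -0.10 and -0.37. Pdgfrb was close to the median level, and Lrat, Des, Hgf and Pdgfra were dim. Pdgfrb, the receptor for platelet-derived growth factor on stellate cells and pericytes, had signals of 37.0, 50.1 and 77.8 in M off, 29.1, 50 and 55.2 in M on, 38.8, 33.9 and 54.6 in Z off, and 27.3, 37.1 and 14.9 in Z on. Both lines overlapped, and the Z difference was -0.75 ± 0.41. Lrat, which esterifies retinol for storage in quiescent stellate cells, ranged from 2.2 to 21.3 over the 12 arrays, the intermediate filament gene Des from 6.9 to 42.2, and the growth factor gene Hgf from 3.8 to 39.5. None of these 3 separated any groups of a line. Further stellate cell markers, 16 of 21 measured, read lower for 11 genes in Z on and for 11 in M on against their off groups, none called, with medians of -0.34 and -0.15. Their summed signal was 2188 to 2385 in Z off against 1986 to 2334 in Z on, which overlap, and 2082 to 2157 in M off against 1864 to 1983 in M on, which do not. Most of that sum was Cxcl12, Steap4 and Rgs5, and Gfap, Ngfr, Cygb and Lhx2 were dim. From M off to M on the means went from 487.2 to 365.0 for Steap4, 324.4 to 238.8 for Rgs5 and 877.7 to 904.8 for Cxcl12. From Z off to Z on they went from 357.5 to 487.2, 342.0 to 265.1 and 1076 to 1051.

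All 7 fibrillar collagen and cross-linking genes read lower in Z on than in Z off, with a median of -0.55, and 5 of 7 in M on than in M off, with a median of -0.20. Col3a1, the type III collagen of reticular fibres, gave the largest Z difference among the genes above the median level. Its signals were 654.4, 549.3 and 749.8 in M off, 411.6, 415.4 and 734.4 in M on, 550.0, 354.1 and 711.9 in Z off, and 235.9, 226.9 and 244.6 in Z on. The 3 Z on arrays were close to each other and below the other 9 arrays, whereas the M groups overlapped through M on replicate 3. Z on differed from Z off by -1.14 ± 0.30 (2.2-fold; 95% interval -1.81 to -0.46; adjusted p = 0.636, limma) and from M on by -1.09 ± 0.30 (adjusted p = 0.496); these contrasts share the Z on arrays. In the M line the on minus off difference was -0.37 ± 0.30, and the difference between the lines was -0.77 ± 0.43 (adjusted p = 0.933).

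Col1a2, a chain of type I collagen, had signals of 190.7, 188.8 and 240.6 in M off, 137.8, 156.6 and 177.4 in M on, 249.1, 164.4 and 166.4 in Z off, and 120.8, 155.1 and 117.0 in Z on. Neither line overlapped between its states, though in the Z line the nearest arrays, at 155.1 and 164.4, were close. The differences were -0.55 ± 0.23 in Z (adjusted p = 0.760, limma) and -0.39 ± 0.23 in M. Col1a1, the partner chain, was barely above the median level, with 54.7, 40.9 and 46.2 in M off, 34.2, 44.2 and 45.3 in M on, 21.6, 43.4 and 43.8 in Z off, and 39.0, 42.8 and 23.3 in Z on. Its groups overlapped in both lines, and its Z difference was -0.03 (95% interval -0.76 to 0.71), too wide to set it apart from that of Col1a2. Its second probe set was dim and gave -1.41, from means of 38.4 in Z off and 11.8 in Z on.

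Col5a1, a minor chain that starts fibrils, had signals of 72.2, 90.4 and 75.5 in M off, 99.2, 79.4 and 90.5 in M on, 85.9, 63.4 and 64.6 in Z off, and 58.8, 61.6 and 41.8 in Z on. On this probe set the Z on arrays were the lowest of the 12, and Z on differed from M on by -0.75 ± 0.22 (adjusted p = 0.512, limma). A second Col5a1 probe set above the median level went the other way, by 0.17, with means of 53.8 in Z on and 49.9 in M on. The mean over all 3 Col5a1 probe sets gave -0.40. The summed signal of the 7 genes, most of it Col3a1 and Col1a2, was 517.1 to 551.9 in Z on, 747.5 to 1094 in Z off, 792.6 to 1154 in M on and 959.7 to 1190 in M off.

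**Figure D2:**
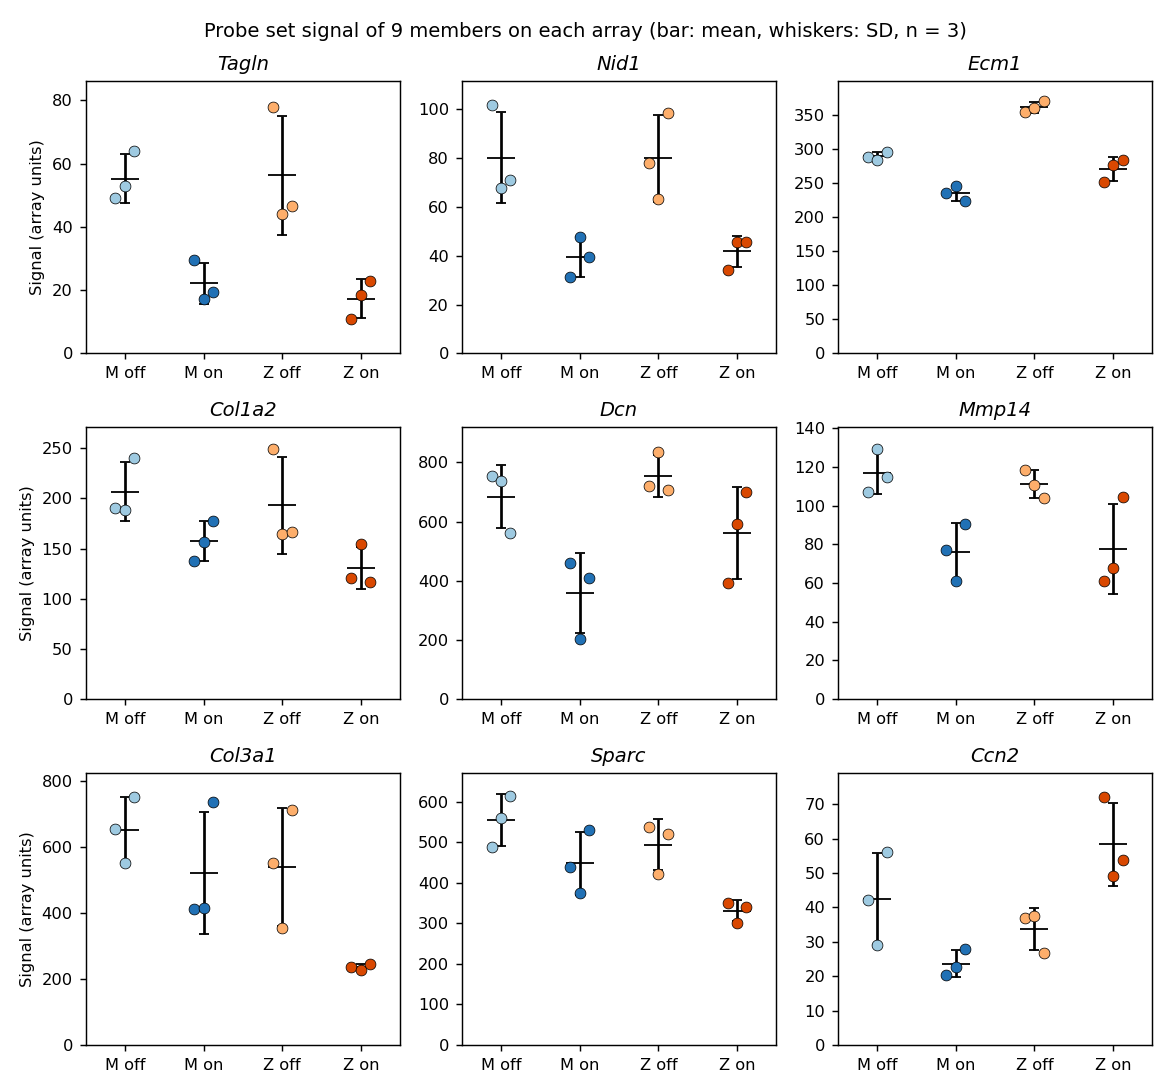
Signals of 9 genes on the 12 arrays (linear array units, axes from 0), 1 point per array, with a line at each group mean and whiskers of 1 SD (n = 3). On points lie below off points in both lines for Tagln, Nid1, Ecm1, Col1a2 and Dcn, Z on stands lowest for Col3a1 and Sparc, and Ccn2 is lower in M on and higher in Z on.

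All 8 basement membrane genes read lower in Z on than in Z off and 6 of 8 in M on than in M off, with medians of -0.28 and -0.16. Nid1, nidogen, which links laminin to type IV collagen, had signals of 101.8, 67.9 and 70.9 in M off, 31.2, 47.6 and 39.4 in M on, 78.0, 63.1 and 98.7 in Z off, and 34.3, 45.5 and 45.6 in Z on. All 6 arrays without doxycycline lay below all 6 with it, and the group means of the lines were alike within each state: 80.2 ± 18.8 (SD, n = 3) and 79.9 ± 17.9 in the off groups, 39.4 ± 8.20 and 41.8 ± 6.50 in the on groups. The differences were -1.02 ± 0.26 in M (adjusted p = 0.585, limma) and -0.92 ± 0.26 in Z (adjusted p = 0.671), with an average of -0.97 ± 0.18 (adjusted p = 0.319). The second Nid1 probe set was dim, with group means of 8.80 to 23.5, and gave -0.15 in M and -0.09 in Z.

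The type IV collagen genes did not separate in the same line. Col4a1 signals were 142.6, 130.9 and 104.9 in Z off against 92.1, 92.6 and 91.1 in Z on, with no overlap, and the M groups overlapped, at 150.8, 133.6 and 151.3 in M off against 136.1, 92.1 and 171.3 in M on. Col4a2 signals were 134.3, 159.3 and 106.1 in M off against 90.1, 97.7 and 100.7 in M on, with no overlap, and the Z groups overlapped, at 77.2, 128.1 and 93.4 against 73.1, 96.1 and 94.9. The difference between the lines was -0.28 ± 0.33 for Col4a1 and 0.30 ± 0.34 for Col4a2, both within their errors. Col18a1, the source of endostatin and the brightest of the basement membrane genes, was 1515 ± 64.7 in Z on and 1711 ± 245.6 in Z off.

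Lamc1, a laminin chain, was near the median level and overlapped between the states of each line and between the lines in each state. Its signals were 36.4, 57.0 and 60.5 in M off, 60.6, 30.9 and 48.9 in M on, 30.4, 27.9 and 53.7 in Z off, and 31.0, 31.7 and 36.3 in Z on. The dim laminin gene Lamb1 had signals of 42.4, 29.4 and 30.2 in M off and 4.4, 23.0 and 9.9 in M on, with no overlap and a difference of -1.74 ± 0.61 (adjusted p = 0.871, limma). Other Lamb1 probe sets, also dim, were divided in the M line, with differences of 1.10 and -1.51.

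Microfibril, elastic fibre and associated collagen genes read lower for 4 of 5 in Z on and for 3 of 5 in M on against their off groups, with medians of -0.21 and -0.08. Eln, elastin, had signals of 123.0, 97.6 and 99.0 in Z off and 58.8, 89.2 and 85.3 in Z on, and Col6a1, a chain of the beaded type VI filaments, had 74.6, 69.5 and 56.9 against 55.1, 54.3 and 40.8. Both lay apart in the Z line, with differences of -0.47 ± 0.29 and -0.42 ± 0.22 that did not pass limma's test (adjusted p = 0.853 and 0.823). The chosen probe sets of the other type VI collagen chains overlapped in the Z line: Col6a2 ranged from 51.6 to 80.0 in Z off and from 55.2 to 79.7 in Z on, and Col6a3 from 67.9 to 83.3 and from 54.7 to 84.0.

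Proteoglycan, adhesive and matricellular genes read lower for 9 of 11 in Z on and for 8 of 11 in M on against their off groups, with medians of -0.19 and -0.30. Ecm1, a secreted glycoprotein that keeps TGF-beta latent in the liver, had replicates close to each other. Its signals were 287.9, 283.5 and 295.3 in M off, 235.6, 245.0 and 223.2 in M on, 353.9, 359.7 and 369.7 in Z off, and 251.0, 277.1 and 283.1 in Z on. On arrays lay below off arrays in each line, and the Z line lay above the M line in each state. The differences were -0.42 ± 0.14 in Z (adjusted p = 0.697, limma) and -0.30 ± 0.14 in M (adjusted p = 0.974), and the line difference averaged over both states was 0.26 ± 0.10 (adjusted p = 0.464).

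Dcn, decorin, a small proteoglycan that binds collagen and TGF-beta, had signals of 754.5, 737.5 and 561.5 in M off, 461.3, 203.6 and 409.2 in M on, 719.7, 836.5 and 705.1 in Z off, and 392.1, 591.8 and 699.4 in Z on. Neither line overlapped, but the highest Z on array was only just below the lowest Z off array. The differences were -1.01 ± 0.33 in M (2.01-fold; adjusted p = 0.805, limma) and -0.46 ± 0.33 in Z (adjusted p = 0.871). Without the 2 M off arrays of high skeletal muscle signal the M difference was -1.13.

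Sparc, a collagen-binding protein of matrix assembly, had signals of 488.1, 559.6 and 616.0 in M off, 439.5, 376.4 and 530.1 in M on, 539.3, 422.7 and 521.0 in Z off, and 350.9, 301.7 and 340.3 in Z on. Z on arrays were the lowest of the 12. The Z difference was -0.57 ± 0.19 (adjusted p = 0.694, limma), and a second bright probe set, with means of 392.1 in Z off and 267.1 in Z on, gave -0.59. Fibronectin, Fn1, was the brightest gene of the set, from 3477.7 to 5392.0, and on that probe set the states differed by 0.02 (95% interval -0.42 to 0.46) in Z and 0.03 (-0.41 to 0.47) in M. A second, much less bright Fn1 probe set had means of 73.8 (Z off), 54.1 (Z on), 84.6 (M off) and 65.1 (M on) and gave -0.44 in Z and -0.41 in M.

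Ccn2, connective tissue growth factor, a TGF-beta and YAP target, ran in opposite directions in the lines. It is dim and, though in the fixed set of genes, was singled out after its values were seen. Its signals were 42.2, 29.2 and 56.1 in M off, 20.3, 22.8 and 27.9 in M on, 37.0, 37.4 and 26.6 in Z off, and 72.1, 49.1 and 53.7 in Z on. M on lay wholly below M off and Z on wholly above Z off. The differences were -0.81 ± 0.28 in M (adjusted p = 0.856, limma) and 0.79 ± 0.28 in Z (adjusted p = 0.706), and Z on was above M on by 1.29 ± 0.28 (adjusted p = 0.336). The test of the difference between the lines gave 1.60 ± 0.40 (95% interval 0.71 to 2.48; unadjusted p = 0.0025; adjusted p = 0.637). The M difference was -0.32 without the 2 M off arrays of high skeletal muscle signal.

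That contrast, the on minus off difference in Z minus that in M, gave 30 of the 51 genes lower and a median of -0.12, against 52.2% of all genes. Limma called no probe set (0.0%), with 1172 at an unadjusted p under 0.05, and 3 of the 51 genes had an unadjusted p under 0.05, against 5.18% of all genes. They were Ccn2 and 2 dim genes, Timp3 and Smad3, singled out here after their values were seen. Of the genes above the median level, Col5a1, Smad7, Col3a1 and Ccn1 had the smallest p. Ccn1, a relative of Ccn2, had signals of 72.3, 38.8 and 80.8 in M off, 82.9, 74.3 and 92.2 in M on, 69.8, 51.9 and 60.3 in Z off, and 59.8, 65.9 and 50.4 in Z on. It did not share the pattern of Ccn2 in either line: its groups overlapped in each, with a difference between the lines of -0.49 ± 0.39 (adjusted p = 0.933).

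Matrix proteases and their inhibitors read lower for 4 of 5 genes in each line. Mmp14, a membrane-bound collagenase that activates Mmp2, had signals of 107.1, 129.1 and 115.1 in M off, 77.1, 61.3 and 90.5 in M on, 118.4, 110.8 and 104.0 in Z off, and 61.0, 67.9 and 104.4 in Z on. The M groups did not overlap, and in the Z line only Z on replicate 3 reached the off range. The differences were -0.63 ± 0.24 in M (adjusted p = 0.892, limma) and -0.55 ± 0.24 in Z (adjusted p = 0.783). A second, dim probe set with group means of 9.60 to 35.6 ran the other way in M, so that the mean of both gave 0.41 there. Mmp2, a gelatinase, had signals of 55.9, 46.6 and 48.3 in Z off and 46.1, 35.9 and 36.2 in Z on, which lay only just apart, and overlapped in the M line. Its differences were -0.36 in Z and -0.28 in M. A second Mmp2 probe set above the median level gave -0.26 in Z and -0.79 in M. Timp1, the inhibitor most used as a sign of fibrosis, was dim on all arrays, at 8.1 to 19.5 in M off, 19.3 to 35.8 in M on, 18.5 to 27.5 in Z off and 10.5 to 37.0 in Z on.

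The TGF-beta ligands, receptors and SMADs were divided between the directions, with 4 of 7 lower in Z and 3 of 7 in M. Tgfb1, the main ligand, was dim and scattered, from 2.6 to 69.6 over the 12 arrays, with overlap in both lines. The chosen probe sets of the receptors Tgfbr1 and Tgfbr2 read slightly higher in both lines, by 0.35 and 0.16 in Z and by 0.19 and 0.14 in M on the log2 scale. Their other probe sets, all dim, also read higher in M but were divided in Z. There they gave -1.11 and 0.23 for Tgfbr1, and -1.97 and 1.59 for Tgfbr2. Smad7 had signals of 61.9, 46.2 and 57.5 in Z off against 45.6, 14.2 and 31.8 in Z on, and of 41.6, 53 and 44.7 in M off against 54.1, 42.9 and 42.0 in M on. The Z groups lay only just apart, and the Z difference of -0.999 ± 0.37 (adjusted p = 0.735, limma) leaned on the 14.2 of replicate 2.

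**Figure D3:**
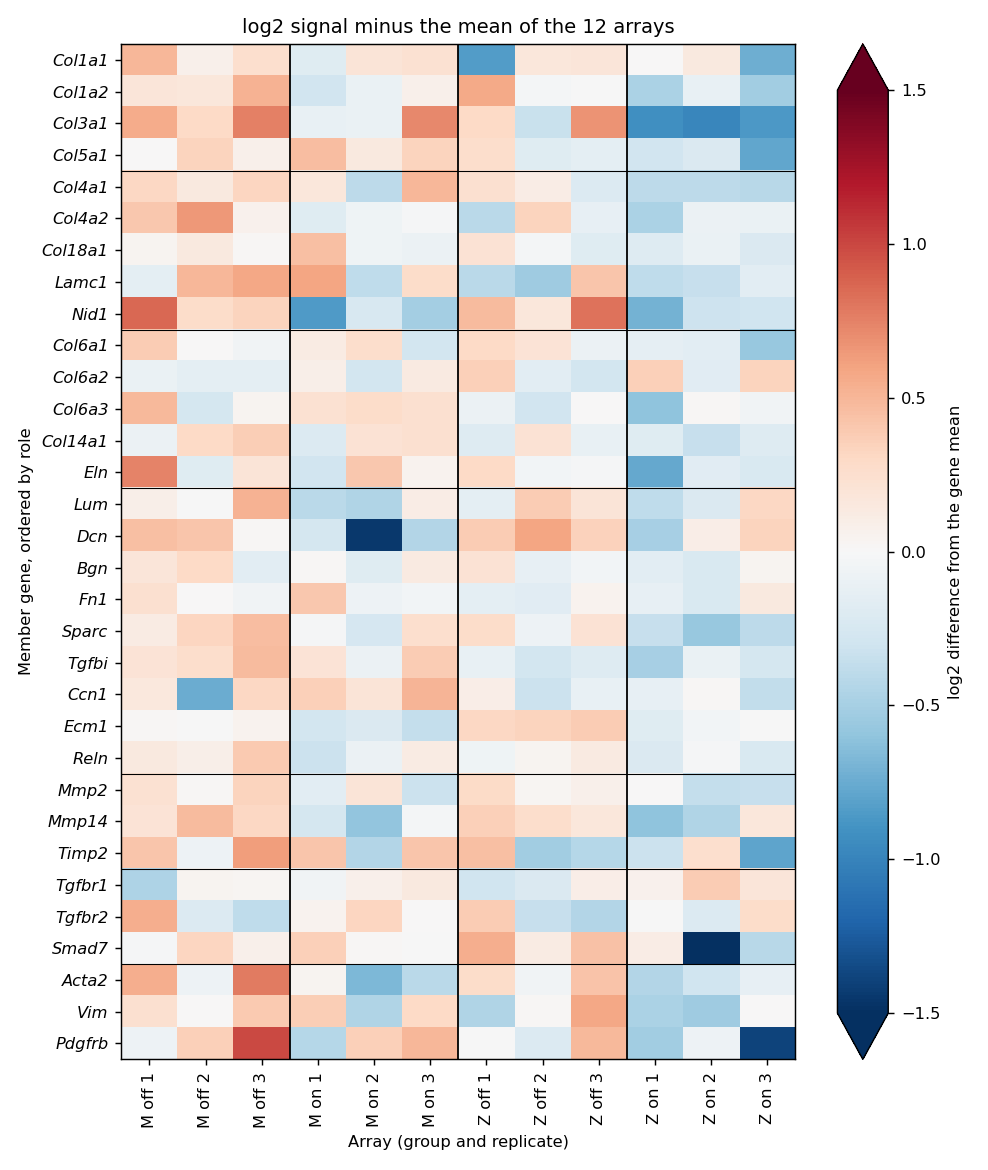
Rows are the 32 genes above the median level, in order of role, and columns the 12 arrays; colour is the log2 signal minus that gene's mean over the 12 arrays, blue below and red above, with values past 1.5 shown at the end colours. The 3 Z on columns are mostly blue, with 27, 26 and 23 of 32 genes below their own mean, and the median gene of each of these arrays lay at -0.33, -0.19 and -0.22. Arrays were not centred for this figure, and the share of all genes below their own mean was not computed.

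Of 27 further TGF-beta and BMP pathway genes, 21 read lower in Z on than in Z off and 12 in M on than in M off, with none called. Id3, an inhibitor of basic helix-loop-helix factors and a BMP target, had means of 299.0 ± 45.8 (SD, n = 3) in M off, 729.2 ± 196.2 in M on, 547.1 ± 166.8 in Z off and 313.1 ± 47.8 in Z on. It read higher with expression in M, by 1.26 ± 0.29 (adjusted p = 0.489, limma), and lower in Z, by a difference of -0.77 ± 0.29 (adjusted p = 0.743), and the lines differed by -2.03 ± 0.41 (adjusted p = 0.434). Of 47 further matrix and collagen-processing genes, 31 read lower in Z and 25 in M, none called, with medians of -0.22 and -0.03. Bmp1, the protease that trims procollagen ends, had the smallest p of that list in the Z line above the median level, with means of 300.7 ± 46.8 in Z off and 185.7 ± 55.7 in Z on, a difference of -0.73 ± 0.23 (adjusted p = 0.671, limma).

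When the 2 forms were compared in the expressing state, 38 of 51 genes read lower in Z on than in M on, with a median of -0.30, against 51.1% of all genes. Limma called 2 probe sets (0.00884%), none of these genes, and the lowest adjusted p among them was the 0.336 of Ccn2. Z on arrays lay below all M on arrays for 7 of 51 (13.7%), against 6.46% of all genes: Col3a1, Col5a1, Col18a1, Col6a3, Sparc, Tgfbi and Ccn1. That count was 3 when a gene's probe sets were averaged. At an unadjusted p under 0.05 there were 4 of 51, against 6.45% of all genes: Ccn2, Col3a1, Col5a1 and Tgfbi. Ccn2 and Ecm1 lay apart in the higher direction, 2 of 51, against 6.0% of all genes.

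The off groups, in which the transgene was silent in both lines, show the background between the lines. In Z off, 36 of 51 genes read lower than in M off, with a median of -0.12, against 48.1% of all genes. Without the 2 M off arrays of high skeletal muscle signal the direction turned, with 23 of 51 lower and a median of 0.04. Limma called 16 probe sets (0.0707%), and none of the 51 genes, whose lowest adjusted p was 0.578. At an unadjusted p under 0.05 there were 3 of 51, against 7.48% of all genes. The groups lay apart in the lower direction for 2 of 51 (3.92%), Lamb1 and Tgfbi, against 7.41% of all genes, and in the higher direction for 2, Thbs1 and Ecm1, against 8.21%.

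**Figure D4:**
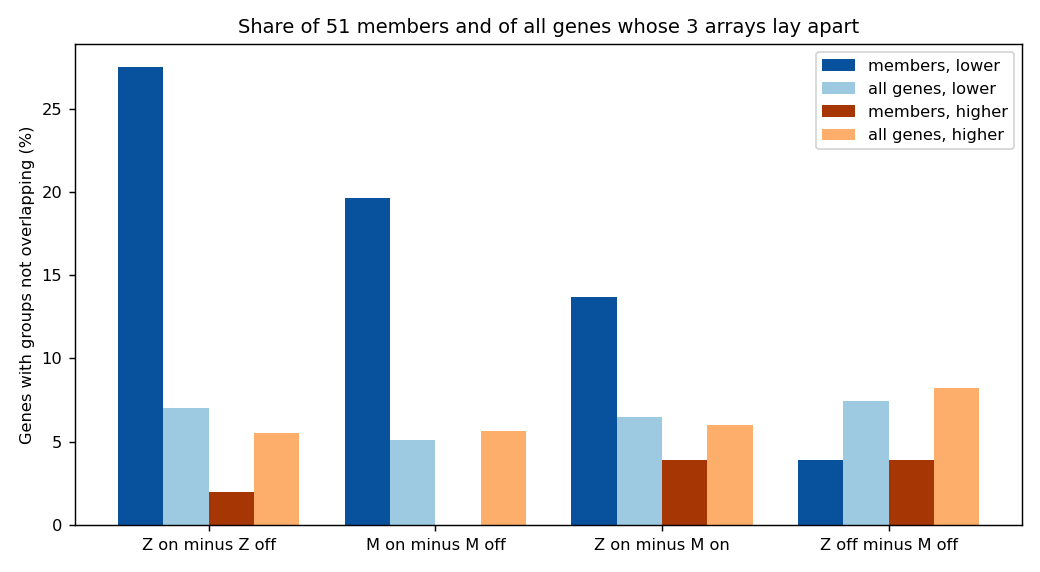
Bars give the share of genes, in percent, whose 3 arrays of one group all lay below (blue) or above (orange) the 3 of the other, for the 51 genes (dark) and all 12393 genes (light), in 4 comparisons. The dark blue bars stand at 27.5%, 19.6% and 13.7% in the first 3 comparisons against 7.0%, 5.08% and 6.46% for all genes, and at 3.92% against 7.41% between the off groups.

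Tgfbi, an adhesive protein induced by TGF-beta, was lower in the Z line in each state on its chosen probe set. Its signals were 179.4, 188.0 and 216.4 in M off, 180.0, 146.9 and 203.6 in M on, 144.7, 129.3 and 136.3 in Z off, and 110.8, 145.4 and 129.8 in Z on. All 6 Z arrays lay below all 6 M arrays, and the states overlapped within each line. The line difference was -0.48 ± 0.13 (95% interval -0.77 to -0.19; unadjusted p = 0.00464; adjusted p = 0.311, limma), and its 3 other probe sets, all above the median level, gave -0.46, -0.25 and -0.11. In the same order, these 3 gave -0.325, -0.228 and 0.087 for Z on minus M on, so the last was not lower in that state. For Z on minus Z off they gave 0.024, 0.12 and 0.478. Averaged over both states, 32 of 51 genes read lower in the Z line with a median of -0.15, against 49.0% of all genes, and limma called 20 probe sets (0.0884%), none of these genes. Of the 51, 5 had an unadjusted p under 0.05, against 8.51% of all genes. Tgfbi was the only 1 of the 51 with all Z arrays below all M arrays in both states, against 1.02% of all genes, and Ecm1 the only 1 above, against 0.791%.

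The other probe sets of the 51 genes were a check on the choice of probe set. Of 50 such probe sets, 28 had the sign of the chosen one in Z on minus Z off, 33 in M on minus M off and 36 in the average, and among the 16 above the median level these counts were 8, 10 and 12. None of them was called by limma in any contrast. Sinusoidal endothelial markers, which come from cells beside the stellate cells, summed to 1429 to 1865 in Z off and 1596 to 1818 in Z on, and to 1410 to 1531 in M off and 1246 to 1399 in M on. Kupffer cell and macrophage markers summed to 2536 to 2841 in Z off and 2550 to 2727 in Z on, and to 2175 to 2481 in M off and 2120 to 2917 in M on. Both sums overlapped between Z on and Z off, and the endothelial sums did not overlap in the M line; their part in the values above was not tested.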

How the data were processed

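Total liver RNA was purified with TRIZOL and RNeasy columns and labelled with biotin, per the labels' protocols. The authors deposited intensities, 1 linear signal per probe set and array. The submitters' processing notes name RMA, but the deposited values are not on a log2 scale and their medians differ between arrays, as signals scaled array by array do; the software was not given in the sources used here. Of 22690 probe sets, 64 controls were left out. Signals were taken to log2 after 1 value of 0 was set to 0.1, with no filter and no further normalization, and 22626 probe sets were fitted over all 12 arrays with limma 3.58.1 in R 4.3.3 (1 mean per group, 7 contrasts, both directions, Benjamini-Hochberg, call at adjusted p under 0.05). The fit was tested on simulated arrays. Symbols came from the platform annotation: 20380 probe sets had 1 symbol, 691 several and 1555 none.

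The genes and lists were chosen with earlier results of these data known. Values on every array are given for the 4 genes of smallest p above the median level in each contrast and for a fixed set (Col1a1, Col1a2, Col3a1, Acta2, Timp1, Tgfb1, Ccn2, Dcn, Sparc, Lrat, Des, Pdgfrb, Fn1, Hgf), some as ranges or by the groups that a result turns on. Genes named beyond these were chosen after seeing their values. The p-values measure the spread between 3 arrays a group, and this number limits their precision. Marker lists for bile duct and mesothelial cells were also read: their sums overlapped between Z on and Z off (128.0 to 138.0 against 105.9 to 148.7, and 2493 to 2623 against 2149 to 2743) and between M on and M off (128.1 to 145.8 against 103.1 to 259.5, and 2539 to 3030 against 2343 to 2572). Nearly all of the mesothelial sum was Krt18 and Krt8, with mean signals of 1354 and 1119. Msln, Upk3b, Wt1 and Gpm6a were dim, with means of 14.3, 10.1, 4.97 and 14.5. That sum therefore says little about these dim markers.

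Alternatives were quantile normalization, arrays centred on their medians, robust variances with an intensity trend, a replicate block, dim probe sets left out, 16 added before log2, a fit of only the groups compared, a gene's probe sets averaged, and each array left out in turn. Counts of groups lying apart under other scalings, and leaving out the 2 M off arrays of high skeletal muscle signal, were chosen after seeing the data.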

Additional observations from a re-analysis of the deposited data

Results flagged for a closer look

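Ccn2 was the gene whose 3 arrays moved wholly one way in the Z line and wholly the other way in the M line, with a difference between the lines of 1.596 on the log2 scale (unadjusted p = 0.0025, adjusted p = 0.637 by limma). It lay between 1.12 and 1.84 over the alternatives. Ccn2 was dim, with 1 probe set. It is in the fixed set of genes, but it was singled out for the alternatives after its values were seen. The share of all genes that lay apart in opposite directions in the lines was not computed.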

How the results depend on the processing

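None of the 51 genes was called by limma in any contrast under any alternative run, and 558 of 559 values of named genes kept their direction; the exception was Mmp14 in M on minus M off, 0.41 when a gene's probe sets were averaged. Adjusted p came closest to the threshold for Tagln (0.066 to 0.391) and Nid1 (0.0826 to 0.818) averaged over both lines. Medians moved by more than the spread between arrays with 16 added before log2 (-0.24 for Z on minus Z off, -0.18 for Z on minus M on, -0.14 for the average), with a gene's probe sets averaged (-0.25 for the difference between the lines), and without the 2 M off arrays of high skeletal muscle signal (-0.23 for that difference, 0.04 for Z off minus M off). Leaving out 1 array gave medians of -0.39 to -0.24 for Z on minus Z off (highest without Z on replicate 1), -0.30 to -0.13 for M on minus M off (lowest without M off replicate 2), -0.31 to -0.25 for Z on minus M on, -0.16 to -0.06 for Z off minus M off (-0.06 without Z off replicate 2, -0.07 without M off replicate 1), -0.31 to -0.18 for the average, -0.20 to -0.07 for the difference (without Z on replicates 2 and 1) and -0.18 to -0.09 for the line difference (-0.09 without M off replicate 1). Genes whose groups lay apart in the lower direction numbered 4 instead of 2 for Z off minus M off (quantile normalization; 4 also with centring), 3 instead of 7 for Z on minus M on (probe sets averaged), and 3 instead of 5 for both lines (centring; 3 also with probe sets averaged). Probe sets called over the alternatives numbered 0 to 8 for Z on minus Z off, 0 to 8 for M on minus M off, 0 to 22 for Z on minus M on, 0 to 51 for Z off minus M off, 0 to 2 for the difference, 0 to 17 for the average and 6 to 110 for the line difference. The cause of these changes was not tested.

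The titles number the replicates 1 to 3 in each group. Same-numbered arrays of different groups did not deviate together (r from -0.08 to 0.16 over 18 pairs, 3 of them over 0.1), and 6 of 12 arrays correlated best with an array of their own number, so the numbers were not taken to pair the samples. With a replicate block the median stayed at -0.39 for Z on minus Z off and no member was called. Dim signals limit what 19 of the 51 genes can show.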
